A study of Mus musculus with 12 samples.

Results

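The genes described here encode the proteins of the mitochondrial ribosome. The rule that picks them uses the symbol alone: it takes every gene of the deposited table named Mrpl or Mrps followed by a number and, in some cases, a letter from a to c. It found 77 of the 16670 genes listed. Of these, 50 encode proteins of the large subunit and 26 of the small subunit. The remaining gene, Mrps36, carries the family name, but its protein belongs to the alpha-ketoglutarate dehydrogenase complex. Mrps30 and Mrps18a encode large subunit proteins in spite of their symbols and are counted there.

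Mitochondrial ribosomes translate the few messenger RNAs made inside mitochondria, which encode core subunits of the respiratory chain and of ATP synthase. Their RNA comes from the mitochondrial genome, but all of their proteins are encoded in the nucleus, made in the cytosol and imported. Some are homologues of bacterial ribosomal proteins and others are found only in mitochondria. In fat tissue, mitochondrial mass rises as precursor cells become adipocytes, and the respiratory chain serves both energy supply and the carbon flow into stored lipid.

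RNA was sequenced from inguinal white adipose tissue, a subcutaneous fat depot, of female C57BL/6 mice whose age the labels do not state. The tissue of 2 mice was pooled, digested with collagenase and spun, which gave a floating layer of mature adipocytes and a pellet of stromal vascular cells. The pellet is a mixture that includes progenitor, endothelial and immune cells. The 4 groups of 3 libraries were mature adipocytes labelled Kdm5c+/-, mature adipocytes labelled Kdm5c+/+ (wild type), stromal vascular cells labelled Kdm5c+/- and stromal vascular cells labelled wild type. The labels do not state which part of Kdm5c the mutant allele lacks, nor that the pools came from different animals, so the p-values measure the spread between these libraries.

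Kdm5c, an X-linked demethylase of histone H3 lysine 4 that escapes X inactivation, was measured at 158 to 190.3 CPM (counts scaled to 1000000 per library) in Kdm5c+/- adipocytes, against 174 to 180.0 CPM in wild type. In the stromal vascular fraction it was at 175 to 194 CPM in Kdm5c+/- libraries, against 180.1 to 188 CPM in wild type. The groups overlapped in both fractions (-0.08 ± 0.10 in adipocytes and 0.01 ± 0.07 in stromal vascular cells on the log2 scale), so the gene's level does not bear out the genotype labels, and libraries are called by their labels. The 8 adipocyte markers summed to 26479 to 37187 CPM in adipocytes against 471 to 1573 CPM in stromal vascular cells, and the 6 progenitor markers to 57.8 to 138 CPM in adipocytes against 5340.0 to 8049 CPM in stromal vascular cells. No marker of either list was absent from the other fraction. Mammary epithelium markers (5 genes) summed to 48.0 to 210 CPM in stromal vascular libraries, against 0.588 to 1.16 CPM in adipocytes. A library held at least 21836878 reads, at which a level of 3 reads equals 0.102 to 0.137 CPM. Levels are given in CPM as mean ± SD, and differences on the log2(CPM + 1) scale as the limma estimate ± SE. In bulk RNA, fewer cells of a type and less RNA per cell cannot be told apart.

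Divided by transcript length, so that genes can be compared, the members covered a wide range of levels. In mature adipocytes the median member was at 21.2 CPM per kilobase of its longest coding transcript, and in the stromal vascular fraction at 10.5 CPM per kilobase. In adipocytes the order was led by Mrps6 (168 ± 31.1 CPM per kilobase), Mrps21 (93.7 ± 10.01), a small subunit protein, and Mrpl42 (78.4 ± 7.47), a mitochondria-specific protein of the large subunit (SD, n = 6 libraries each). Mrps6 was above the other 2 in every library, and Mrps21 and Mrpl42 overlapped. In the stromal vascular fraction the order was Mrpl52 (45.4 ± 6.16 CPM per kilobase), Mrps21 (40.7 ± 5.48) and Mrpl42 (32.7 ± 1.64), and Mrps6 ranked 23. Here Mrpl52 and Mrps21 overlapped, and Mrps21 and Mrpl42 did not. In both fractions the lowest were Mrpl23, Mrpl47 and Mrpl19, which encode large subunit proteins. The value of Mrpl19 rests on an annotated transcript of 5000 bases and that of Mrpl47 on 3364 bases, and which transcripts these cells use was not tested.

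Mrpl23, which encodes a protein at the exit of the peptide tunnel, stood apart from all other members. It was at 0.527 ± 0.151 CPM in adipocytes and 0.768 ± 0.202 CPM in the stromal vascular fraction (SD, n = 6 each). Per kilobase it was at 0.716 in adipocytes and 1.04 in stromal vascular cells, where Mrpl47, next above it, was at 2.47 and 1.55. It did not reach 1 CPM in 3 libraries, so 76 of the 77 members entered the tests. Of the members, 3 have at least 1 pseudogene that bears their name in the annotation: Mrpl23, Mrpl48 and Mrps36. Pseudogenes under other names were not counted. In addition, 8 members share exon sequence with a second gene on the same strand and 27 with one on the opposite strand. The labels do not say how such reads were counted, and the levels of these genes are uncertain for that reason.

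The mitochondrial ribosomal protein genes were higher in mature adipocytes than in stromal vascular cells almost without exception. Of the 76 tested members, 75 rose and 0 fell in mature adipocytes (limma, adjusted p under 0.05). Over all 14193 genes tested, 28.7% rose and 59.1% fell. The median member differed by 1.02, a 2.03-fold higher level, where the median of all genes was -0.45. The levels of 73 members did not overlap between the 6 adipocyte and the 6 stromal vascular libraries with adipocytes higher, and 0 with adipocytes lower, beside 23.2% and 51.4% of all genes tested.

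**Figure D1:**
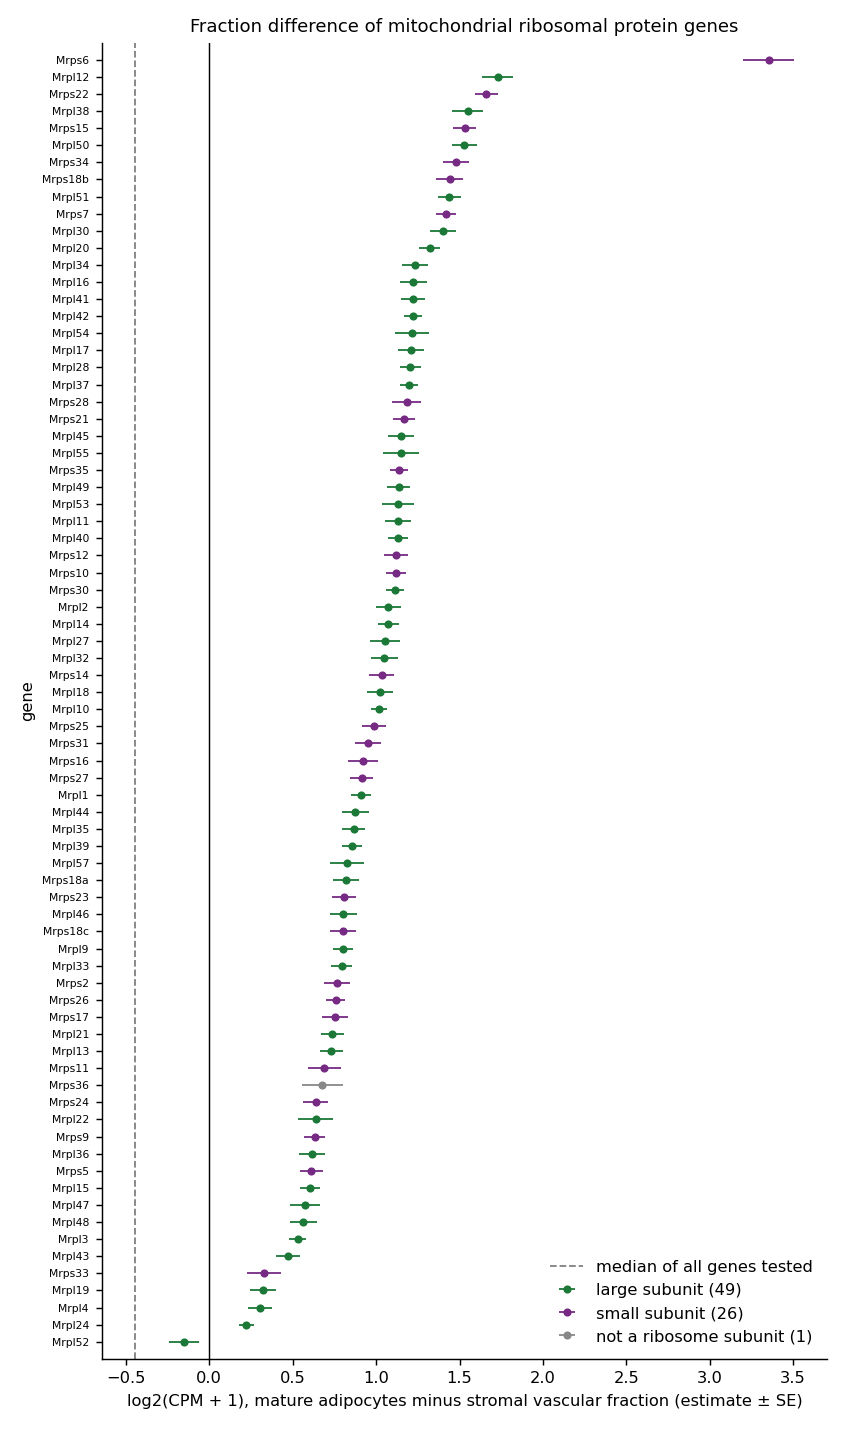
Difference in log2(CPM + 1) between mature adipocytes and the stromal vascular fraction (estimate ± SE) for the 76 members tested, sorted and coloured by subunit, with the median of all genes tested (-0.45) as a dashed line. Mrps6 at 3.35 stands apart at the top and Mrpl52 at -0.15 is the only member below 0.

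Both subunits took part. Of the large subunit genes, 48 of 49 rose, with a median of 1.05, and of the small subunit genes 26 of 26 rose, with a median of 0.97. Genes with a bacterial homologue (45 of 45, median 1.02) and mitochondria-specific genes (29 of 30, median 1.12) gave like values. Summed over the family, the level was 2842, 2611 and 2784 CPM in Kdm5c+/- adipocytes and 2627, 2444 and 2555 CPM in wild type adipocytes. In the stromal vascular fraction the sums were 1319.6, 1241 and 1144 CPM in Kdm5c+/- and 1191, 1231 and 1246 CPM in wild type libraries. Every adipocyte library was above every stromal vascular library, and the ratio of the means was 2.15. The ratio was 2.41 for the small subunit and 2.04 for the large subunit, and the small subunit ratio became 2.11 without Mrps6.

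**Figure D2:**
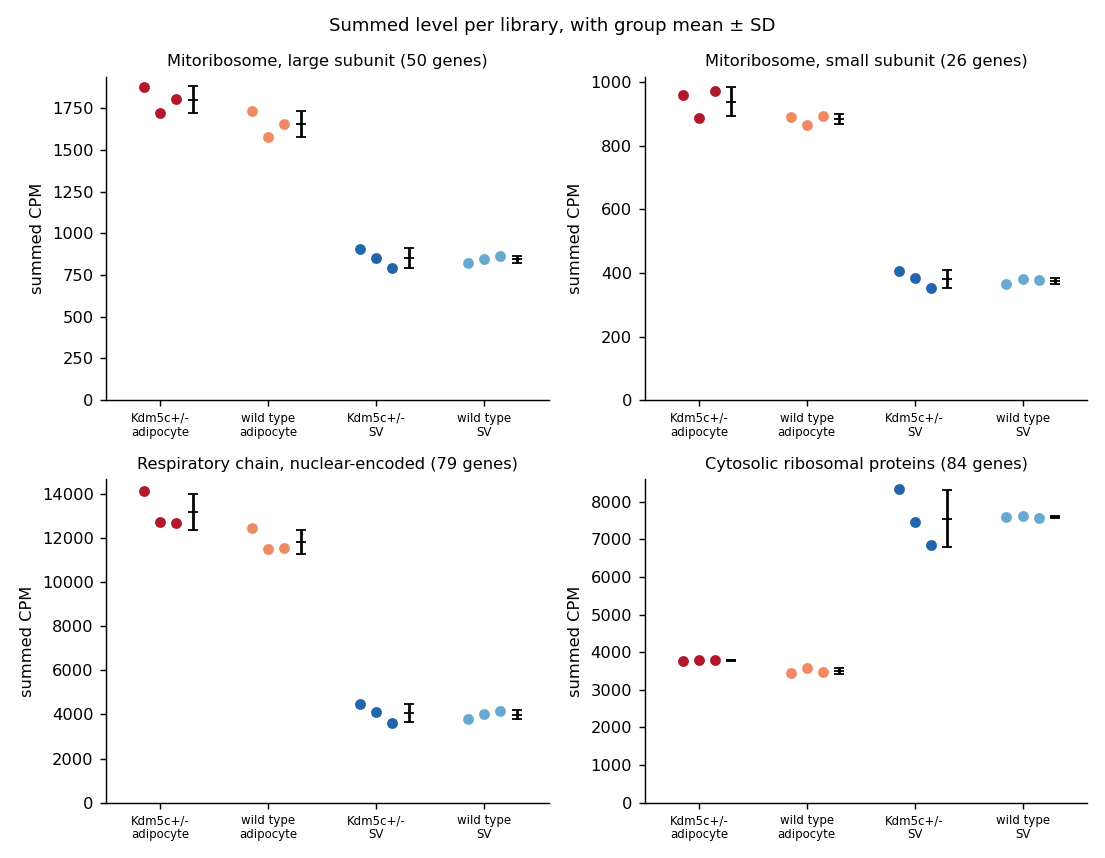
Summed CPM per library (points) with group mean ± SD for the large subunit, small subunit, nuclear-encoded respiratory chain and cytosolic ribosomal protein genes, in the 2 adipocyte groups (left) and the 2 stromal vascular (SV) groups (right). The sums of both mitochondrial subunits and of the respiratory chain are higher in adipocytes, and those of the cytosolic ribosomal proteins are lower.

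Mrps6, which encodes a small subunit protein related to bacterial S6, had the largest difference. It was at 128, 128 and 173 CPM in Kdm5c+/- adipocytes and 104, 164 and 155 CPM in wild type adipocytes, against 15.7, 17.5 and 10.2 CPM in Kdm5c+/- libraries and 10.9, 10.7 and 13.2 CPM in wild type stromal vascular libraries. The ratio of the means was 10.9, and the difference was 3.35 ± 0.15 (limma, adjusted p = 1.29e-09). In adipocyte libraries Mrps6 made up 3.95% to 6.72% of the summed CPM of the family, against 0.868% to 1.41% in stromal vascular libraries. The gene lies on the plus strand of chromosome 16 (92058270 to 92112227, GRCm38). There it shares exon sequence on the same strand with Slc5a3, the sodium and myo-inositol cotransporter. Slc5a3 showed the same direction with a larger difference, at 400.0 ± 121 CPM in adipocytes against 22.2 ± 5.25 CPM in stromal vascular libraries (SD, n = 6 each), a log2 difference of 4.08 ± 0.16. How many Mrps6 reads came from transcripts of Slc5a3 was not tested.

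After Mrps6 the differences formed a continuous series. Mrpl12 encodes the protein of the flexible stalk that binds the translation factors. Its level was lowest at 62.2, median 82.9 and highest at 90.4 CPM in adipocytes, against 20.7, 23.3 and 24.5 CPM in stromal vascular libraries, a difference of 1.73 ± 0.09 (limma, adjusted p = 4.2e-09). Mrps22, a mitochondria-specific protein of the small subunit, was at 20.8 to 24.9 CPM in adipocytes, against 5.99 to 7.78 CPM in stromal vascular libraries, a difference of 1.66 ± 0.07. For both genes the fractions were far apart relative to the spread within each. Mrpl38 (1.55 ± 0.09), a protein of the central protuberance of the large subunit, Mrps15 (1.53 ± 0.07), related to bacterial S15, and Mrpl50 (1.53 ± 0.07), a mitochondria-specific large subunit protein, followed. These 6 were the members with a difference of at least 1.5, and 39 members had a difference of at least 1.

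At the other end, Mrpl52, a mitochondria-specific protein of the central protuberance, was the member that did not rise. It was at 17.0 to 21.4 CPM in adipocytes, against 18.0 to 24.2 CPM in stromal vascular libraries, and the groups overlapped (-0.15 ± 0.09, limma adjusted p = 0.123). Under each of 5 other scalings or tools its sign turned and it passed the test, with differences of 0.22 to 0.35. Without Kdm5c+/- stromal vascular library 3 it passed as lower (-0.21, limma adjusted p = 0.0352). The next smallest differences, named after their values were seen, were those of Mrpl24 (0.22 ± 0.05), at the exit of the peptide tunnel, Mrpl4 (0.30 ± 0.07), in the tunnel wall, Mrpl19 (0.32 ± 0.08), Mrps33 (0.33 ± 0.10), a mitochondria-specific small subunit protein, and Mrpl43 (0.47 ± 0.07). All 5 passed the test in limma (adjusted p of at most 0.0089), but the fractions overlapped for Mrpl19 and Mrps33. Mrpl24 was at 45.9 to 53.8 CPM in adipocytes, against 39.9 to 44.0 CPM in stromal vascular libraries, so its fractions were close without overlapping.

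**Figure D3:**
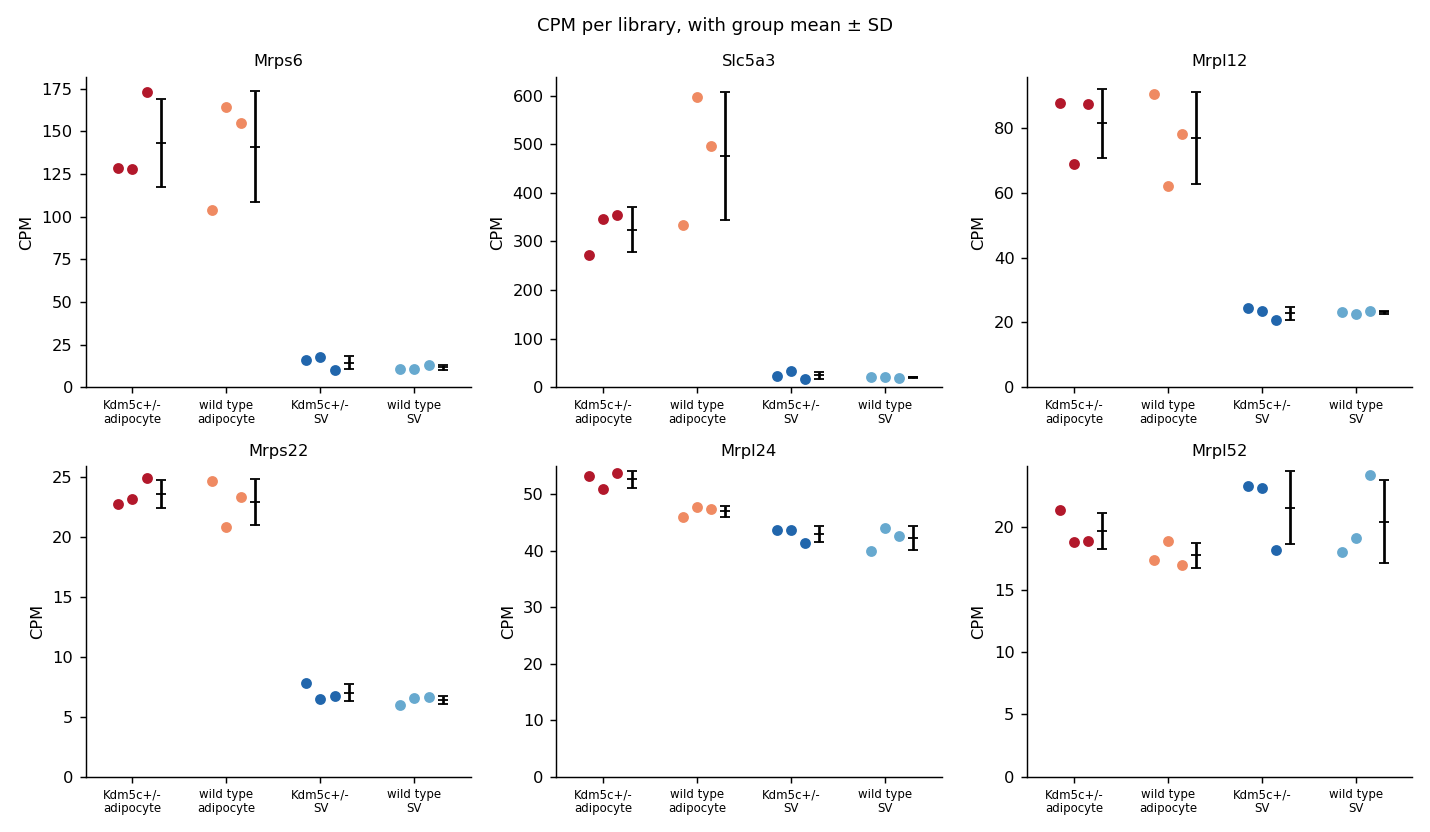
CPM per library (points) with group mean ± SD for Mrps6, Slc5a3, which shares exon sequence with it, Mrpl12, Mrps22, Mrpl24 and Mrpl52, adipocyte groups left and stromal vascular (SV) groups right. Mrps6 and Slc5a3 are higher in adipocytes by 10.9 and 18.0 times, and Mrpl52 overlaps between the fractions.

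Within parts of the ribosome the members did not move as blocks. The 3 genes of the stalk and its base (Mrpl10, Mrpl11, Mrpl12) ranged from 1.02 to 1.73. The 5 tested genes of proteins around the exit of the peptide tunnel ranged from 0.22 to 1.21 with a median of 0.64. The 6 genes of the central protuberance held both Mrpl38 at 1.55 and Mrpl52 at -0.15. The paralogues related to bacterial S18 also differed in size: Mrps18b had a difference of 1.44 ± 0.08, Mrps18a of 0.82 ± 0.08 and Mrps18c of 0.80 ± 0.08. In the counts above, Mrps18c was classed as having a bacterial homologue. Mrps18a and Mrps18b were classed as mitochondria-specific, after the names of their proteins (mL66 and mS40). Mrps30, a large subunit protein, had a difference of 1.11 ± 0.05, and Mrps36, outside the ribosome, of 0.68 ± 0.12. These groups were formed from the known structure with the values in view, and differences between them were not tested.

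The order of the members was alike in the 2 genotype labels, which were fitted separately on different libraries. Within Kdm5c+/- libraries 73 members rose in adipocytes, and within wild type libraries 74. The 2 sets of differences correlated at Pearson's r = 0.953 and Spearman's rho = 0.926 across the 76 members (0.928 and 0.923 without Mrps6), a description in which the points share the library scaling of each group.

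Scaling moved the size of the family's median difference, and the sign of 1 member, Mrpl52. In adipocytes the top 10 genes held 15.7% to 19.3% of each library, against 5.77% to 8.41% in stromal vascular cells. With median-of-ratios, quantile or TMM scaling, or with edgeR or DESeq2 on recovered reads, the median of all genes lay between -0.09 and 0.09 and all 76 tested members rose. Relative to the median of all genes, the median member was 1.47 higher by limma on CPM and 1.47 to 1.54 higher over all 6 settings.

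The rest of the mitochondrial translation apparatus was also mostly higher in adipocytes, with smaller medians. Mitochondrial ribosome subunits with other symbols all rose (6 of 6, median 0.81), among them Dap3 (0.81 ± 0.05), a small subunit protein that binds GTP, and Ptcd3 (0.80 ± 0.06), at the entry of the messenger RNA. Of the ribosome assembly factors, 18 of 25 rose and 5 fell (median 0.46), with Mtg1, a GTPase, at 1.89 ± 0.09. Of the genes of mitochondrial aminoacyl-tRNA synthesis, most of them synthetases, 16 of 22 rose and 1 fell (median 0.55). Of the translation factors, 11 of 15 rose and 2 fell (median 0.60), with the elongation factor Gfm1 at 0.83 ± 0.05 and the ribosome recycling factor Mrrf at -0.61 ± 0.07. Of the genes of mitochondrial transcription and RNA handling, 16 of 22 rose and 3 fell (median 0.46), with Lrpprc, which stabilises mitochondrial messenger RNAs, at 1.02 ± 0.05. The calls of lower level depended on the scaling: with each of the 5 other settings, 0 or 1 gene per list was called lower, and Mrrf was below 0 in all of them.

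The genes of the respiratory chain, whose core subunits mitochondrial ribosomes make, had a larger median. These genes were picked by symbol, which does not show that each one, Atp5sl and Atp5s among them, encodes a subunit. Of the 77 tested, 74 rose and 2 fell (Cox6b2, -0.61 ± 0.13, and Atp5sl, -0.32 ± 0.07), with a median of 1.45. The summed level of the list was 12510.5 ± 971 CPM in adipocytes against 4033 ± 293 CPM in stromal vascular libraries (SD, n = 6 each). The number called lower was 0 or 1 with the other scalings. Ndufb3 and Ndufb9, subunits of complex I, had differences of 2.19 ± 0.05 and 2.13 ± 0.06. Of 16 other genes of mitochondrial content, 15 rose, with citrate synthase (Cs) at 2.31 ± 0.08, and 1 fell, which was called lower in 0 of the other scalings. The cytosolic ribosomal protein genes, a list that holds paralogues such as Rps27l, went the other way. Of these, 66 of 81 were lower and 4 higher, among them Rps27l (0.54 ± 0.09), with a median of -0.90. Over all genes tested, 59.1% were lower and 28.7% higher, with a median of -0.45. Their summed level was 3643 ± 162 CPM in adipocytes and 7580 ± 477 CPM in stromal vascular libraries. With other scalings their median stayed negative (-0.65 to -0.32), but the number called higher reached 30 with quantile normalization, where 45 were called lower.

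Promoter sequence was examined because the members moved together. RefSeq windows (GRCm38.p6) from 250 bases before to 50 bases after the annotated start were at hand for 68 of the 77 members. The windows upstream of Mrps6, Mrpl12 and Mrps22, the members with the largest differences, and of Mrpl52, which did not rise, are shown 5′ to 3′ without the bases that lie inside the annotated gene. Capitals mark the letters GCGCA, any base, GCGC of nuclear respiratory factor 1 (NRF1) and CCGGAAG of ETS factors such as GABPA, on either strand. The window of Mrps6 is chr16:92058086-92058269 (plus strand), that of Mrpl12 chr11:120484387-120484612 (plus strand), that of Mrps22 chr9:98601680-98601929 (minus strand) and that of Mrpl52 chr14:54426659-54426908 (plus strand).
Mrps6: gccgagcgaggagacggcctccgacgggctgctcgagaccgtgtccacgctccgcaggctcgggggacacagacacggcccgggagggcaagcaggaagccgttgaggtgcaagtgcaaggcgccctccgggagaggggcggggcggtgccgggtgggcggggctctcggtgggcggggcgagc
Mrpl12: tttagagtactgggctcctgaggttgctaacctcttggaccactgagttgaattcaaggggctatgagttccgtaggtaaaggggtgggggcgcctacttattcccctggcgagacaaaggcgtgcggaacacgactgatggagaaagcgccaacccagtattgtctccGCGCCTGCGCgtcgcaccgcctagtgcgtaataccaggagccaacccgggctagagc
Mrps22: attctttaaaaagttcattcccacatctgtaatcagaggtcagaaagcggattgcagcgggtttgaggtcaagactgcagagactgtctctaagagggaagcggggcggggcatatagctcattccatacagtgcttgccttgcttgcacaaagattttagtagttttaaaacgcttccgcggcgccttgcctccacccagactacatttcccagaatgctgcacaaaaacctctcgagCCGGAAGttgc
Mrpl52: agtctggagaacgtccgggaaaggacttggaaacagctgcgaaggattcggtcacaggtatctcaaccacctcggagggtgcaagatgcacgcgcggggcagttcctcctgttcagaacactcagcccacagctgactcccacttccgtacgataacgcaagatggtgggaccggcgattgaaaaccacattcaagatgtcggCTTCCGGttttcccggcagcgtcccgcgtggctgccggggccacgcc

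Distances are counted from the RefSeq start. For Mrps6 and Mrpl12 the GENCODE gene begins before that start, so the 66 and 24 bases next to it are not shown. The NRF1 letters stood 81 bases before the RefSeq start of Mrpl12, on the strand opposite to the one shown. The ETS letters stood 11 bases before the start of Mrps22 on the strand shown and 47 bases before that of Mrpl52 on the opposite strand, and neither motif was in the Mrps6 window. Over the family, NRF1 letters were in 13 of 68 windows (19.1%), against 8.81% of the 12278 genes of the table with a window. ETS letters were in 24 (35.3%, against 15.3%), and the letters AA, any base, ATGGCG of YY1 in 10 (14.7%, against 4.41%). At least 1 of these 3 motifs was in 58.8% of the members' windows, against 25.4% of those of the table. ZNF143 letters (ACTACAA, any base, TCC) were in 4 windows (5.88%, against 2.07%). The CCAAT box (39.7%, against 37.9%), the cyclic AMP response element TGACGTCA (2.94%, against 2.96%) and TATAAA (5.88%, against 8.1%) were about as common in the members as in the table. Motifs were searched on both strands, overlaps between motifs were allowed, and no test was made.

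Differences between fractions were also set side by side for members with and without these letters, and no test was made. Members with NRF1 letters had a median difference of 1.05 (n = 13) and those without 1.00 (n = 54). With ETS letters the median was 0.87 (n = 24), against 1.05 without (n = 43), and with YY1 letters 0.89 (n = 10), against 1.02 without (n = 57). Of 14 tested regulators of mitochondrial genes, 4 rose and 10 fell (7 with each other scaling), beside 28.7% and 59.1% of all genes. The coactivator genes Ppargc1a (2.78 ± 0.12) and Ppargc1b (1.78 ± 0.15) rose in adipocytes. Nrf1 (-1.23 ± 0.07), Gabpb1 (-1.96 ± 0.09), a partner of GABPA, and Zfp143 (-1.58 ± 0.07), the mouse ZNF143, fell, and these 5 kept their sign under all 6 settings.

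In mature adipocytes, no member passed the test between Kdm5c+/- and wild type libraries. Of the 76 tested, 0 were called in either direction (limma, smallest adjusted p = 0.273), as were 0% of the 11913 genes tested. The members lay mostly on the positive side, with 64 of 76 above 0 and a median of 0.10, where the median of all genes was -0.03. At an unadjusted p under 0.05, 10 members were higher and 0 lower, and over all genes 664 were higher and 1073 lower. DESeq2 on recovered reads called 1 member, Mrpl41, with 125 genes called higher and 125 lower over the table, and edgeR called 0 members.

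**Figure D4:**
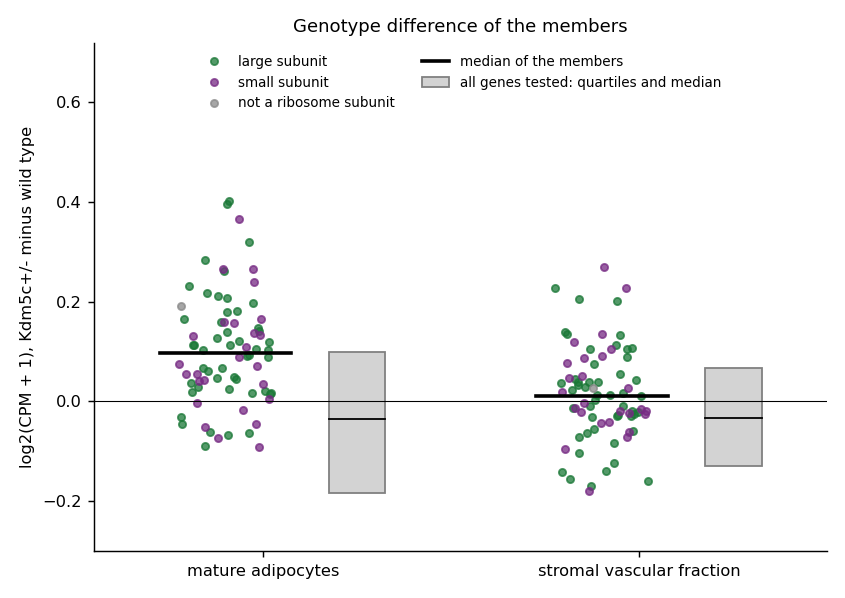
Difference in log2(CPM + 1) between Kdm5c+/- and wild type libraries for the 76 members tested in mature adipocytes (left) and in the stromal vascular fraction (right), with the members' median as a bar and the quartiles and median of all genes tested as a grey box. The members' median is 0.10 in adipocytes and 0.01 in the stromal vascular fraction.

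Mrpl41, a mitochondria-specific protein of the large subunit, had the smallest p. Its level was 34.6, 36.9 and 39.9 CPM in Kdm5c+/- adipocytes, against 27.5, 27.3 and 29.0 CPM in wild type. All Kdm5c+/- values were above all wild type values, and the difference was 0.40 ± 0.08 (limma, adjusted p = 0.273; DESeq2, 0.45 with adjusted p = 0.00979). Over the other settings of the limma and edgeR fits, the smallest adjusted p of any member ranged from 0.0673 to 0.612.

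Mrps24, a protein of the channel through which messenger RNA enters, was at 38.8, 33.0 and 33.4 CPM in Kdm5c+/- adipocytes, against 28.5, 25.5 and 26.8 CPM in wild type, a difference of 0.37 ± 0.09. Mrps21 was at 51.1, 48.2 and 50.8 CPM in Kdm5c+/- adipocytes, against 43.1, 40.6 and 40.6 CPM in wild type (0.27 ± 0.07). Mrps12, a protein of the decoding centre, was at 32.2, 29.1 and 33.4 CPM in Kdm5c+/- adipocytes, against 26.4, 25.9 and 25.8 CPM in wild type (0.27 ± 0.08). For these 3 genes the groups did not overlap, and 0 of the 3 passed the adjusted test (limma adjusted p of 0.273 to 0.289). Mrps24 shares exon sequence with Urgcp on the same strand, so its reads are uncertain.

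In all, 15 members had all Kdm5c+/- values above all wild type values and 0 had them below, beside 9.44% and 12.6% of all genes tested. The members with negative differences were small in effect. The 4 with the smallest p were the large subunit genes Mrpl33 (-0.09 ± 0.09) and Mrpl20 (-0.06 ± 0.09) and the small subunit genes Mrps18b (-0.09 ± 0.11) and Mrps7 (-0.07 ± 0.09), and each had overlapping groups. Every member's 95% interval excluded a 2-fold difference, and for 74 of 76 it lay within 1.5-fold.

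**Figure D5:**
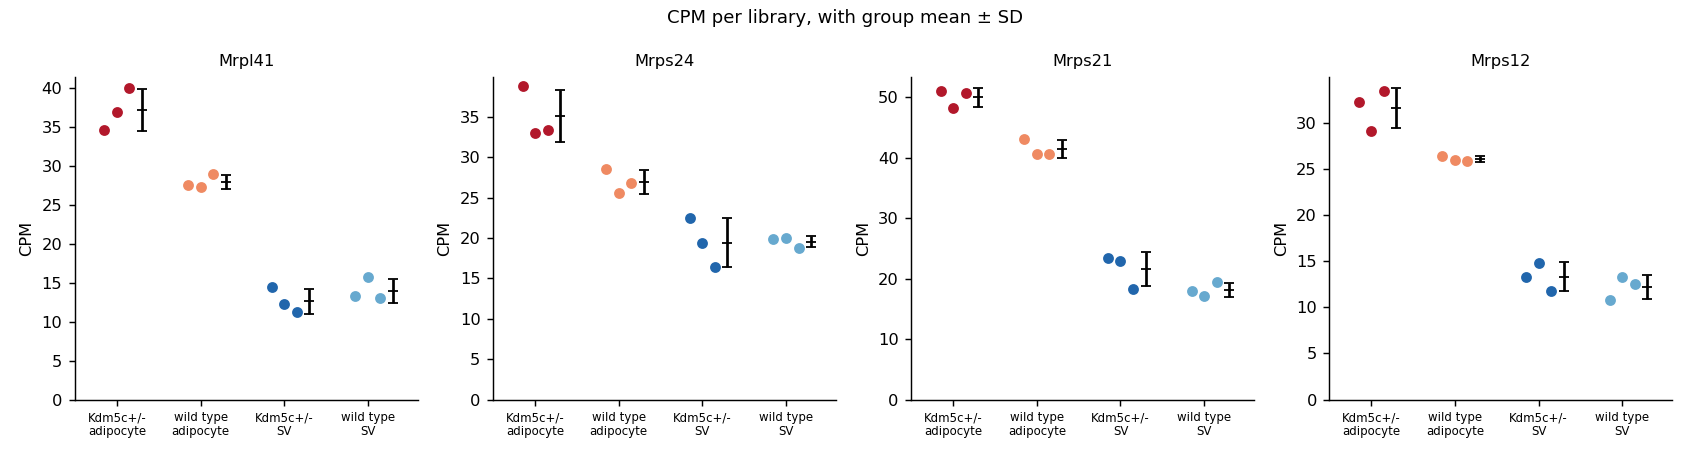
CPM per library (points) with group mean ± SD for Mrpl41, Mrps24, Mrps21 and Mrps12, the members with the smallest p for a higher level in Kdm5c+/- adipocytes. In the adipocyte groups (left) the Kdm5c+/- values lie above the wild type values, and in the stromal vascular (SV) groups (right) the groups overlap for all 4.

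The respiratory chain and the cytosolic ribosome stood on the same side in adipocytes. Of the respiratory chain genes, 70 of 75 were above 0 (median 0.18, 31 with an unadjusted p under 0.05), with Ndufa1 of complex I at 0.59 ± 0.08, and of the cytosolic ribosomal protein genes 59 of 79 (median 0.12), and 0 of either list passed the limma test. Summed levels of some cell type markers did not overlap between the genotype labels, and these sums were not tested. The 8 adipocyte markers summed to 28838 to 37187 CPM in Kdm5c+/- adipocyte libraries, against 26479 to 27061 CPM in wild type adipocyte libraries. Taken singly, 5 of the 8 were above 0 and 3 below, from -0.77 to 0.58 (median 0.19), and 0 passed the limma test. The 5 endothelial markers summed to 81.2 to 152 CPM in Kdm5c+/- against 191 to 241 CPM in wild type libraries, and the 6 progenitor markers to 57.8 to 62.9 CPM in Kdm5c+/- against 71.5 to 138 CPM in wild type libraries. The summed macrophage markers overlapped, though taken singly 6 of 6 were below 0 (median -0.49). Rn45s, the ribosomal RNA precursor, was at 4909, 7692 and 4813 CPM in Kdm5c+/- adipocytes, against 4015, 4386 and 3794 CPM in wild type, without overlap. The part of these markers and of Rn45s in the members' differences was not tested. Leaving out 1 library at a time left between 55 and 69 members above 0, with medians of 0.06 to 0.12.

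In the stromal vascular fraction the members lay on both sides of 0. Of the 76 tested, 0 passed between Kdm5c+/- and wild type libraries (limma, smallest adjusted p = 0.644). Over all genes, 0.00725% were higher, which is 1 of 13792 (Rps4l, a paralogue of a cytosolic ribosomal protein gene, 1.06 ± 0.08, limma adjusted p = 0.0347), and 0% were lower. That call was lost in every fit that left out 1 library. Of the members 40 (52.6%) were above 0, with a median of 0.01, beside 40.6% of all genes and a median of -0.03. Relative to the median of all genes, the members' median was 0.04 to 0.05 higher over the 6 scalings and tools. At an unadjusted p under 0.05, 1 member was higher and 0 lower, and over all genes 285 were higher and 758 lower. DESeq2 and edgeR each called 0 members. Every 95% interval excluded a 2-fold difference here too, and 75 of 76 lay within 1.5-fold.

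Mrpl28, related to bacterial L28, was the member with an unadjusted p under 0.05. It was at 18.1, 16.7 and 16.0 CPM in Kdm5c+/- stromal vascular libraries, against 14.0, 13.6 and 15.4 CPM in wild type (0.23 ± 0.10), and the groups did not overlap. Mrps10, a small subunit protein, was at 7.01, 7.14 and 6.86 CPM in Kdm5c+/- libraries, against 7.56, 8.44 and 8.21 CPM in wild type (-0.18 ± 0.11), also without overlap. These 2 were the members without overlap, 1 in each direction, beside 3.74% of all genes tested that were higher and 9.74% that were lower.

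The other members chosen by p were Mrps21 (0.23 ± 0.11), Mrpl45 (0.21 ± 0.12), whose protein ties the ribosome to the inner membrane, and Mrps6 (0.27 ± 0.20) on the positive side. Mrpl43 (-0.16 ± 0.10), Mrpl2 (-0.15 ± 0.10), a core large subunit protein, and Mrpl34 (-0.17 ± 0.12) were on the negative side, and all 6 had overlapping groups. The Mrps6 value was 0.12 without Kdm5c+/- library 2 and 0.49 without Kdm5c+/- library 3. The adipocyte markers summed to 1479, 1573 and 549.8 CPM in these Kdm5c+/- libraries, against 952, 471 and 609 CPM in wild type, with 6 of 8 above 0 (median 0.72). Of the macrophage markers 6 of 6 were above 0 (median 0.35). Their sums were 1423, 2005 and 1881 CPM in Kdm5c+/- against 1402, 1417 and 1476 CPM in wild type libraries. The groups overlapped for the sums of the adipocyte and of the macrophage markers. Of the endothelial markers 5 of 5 were below 0 (median -0.21), as were 4 of 4 markers of proliferating cells (median -0.29). Of the progenitor markers 4 of 6 were above 0 (median 0.01). Without 1 library at a time, 29 to 58 members were above 0, with medians of -0.04 to 0.05. The stromal vascular libraries labelled Kdm5c+/- also held 8985 to 19532 CPM of Rn45s, against 6554 to 6733 CPM in wild type. The part of these markers and of Rn45s in the members' values was not tested.

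The genotype difference was not shown to be unlike in the 2 fractions for any member. In the fit of all 12 libraries, 0 of 76 members and 0% of 14193 genes passed the test of the difference between the differences (limma, smallest member adjusted p = 0.482). Of the members, 62 had a more positive difference in adipocytes, with a median of 0.08, and at an unadjusted p under 0.05, 6 were more positive and 0 more negative. Over all genes 47.3% were above 0, with a median of -0.01, and 602 were more positive and 665 more negative at that p. Leaving out 1 library at a time left 45 to 66 members above 0. The median was then lowest, at 0.04, without Kdm5c+/- stromal vascular library 3 and highest, at 0.13, without Kdm5c+/- stromal vascular library 1. Of the cell type markers, 8 of 8 adipocyte (median -0.54), 6 of 6 macrophage (-0.88), 5 of 5 endothelial (-0.52) and 6 of 6 progenitor markers (-0.43) were below 0 in this contrast, and their part in the members' values was not tested. DESeq2 and edgeR called 0 members.

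Mrpl41 again led, with Mrpl39 and Mrpl34 after it. For Mrpl41 the difference between Kdm5c+/- and wild type was 0.40 ± 0.08 in adipocytes and -0.14 ± 0.13 in stromal vascular cells, where the levels were 14.4, 12.2 and 11.3 CPM in Kdm5c+/- and 13.2, 15.8 and 12.97 CPM in wild type libraries. The difference between the 2 was 0.54 ± 0.15. Mrpl39, a mitochondria-specific large subunit protein, gave 0.37 ± 0.12 and Mrpl34, related to bacterial L34, 0.43 ± 0.16. For all 3, limma's adjusted p was between 0.482 and 0.51.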

How the data were processed

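Per the labels' protocols, strand-specific libraries were made from RNA of both cell fractions. The submitters' processing notes name STAR (2.7.2a), edgeR (3.26.8) and the build GRCm38. For the counting tool, annotation and strand setting, nothing is given in the sources used here. The authors deposited CPM, whose sum is 1000000 in each library. All values (100%) were whole multiples of the CPM worth of 1 read, within 0.05 of a read, so the authors' read counts could be recovered, with 21836878 to 29434125 reads per library. In the deposited table, 23 symbols had been turned into dates and no member was among them.

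Log2(CPM + 1) values were fitted with limma 3.58.1 (R 4.3.3, trend and robust), keeping genes that reached 1 CPM in 3 or more of the fitted libraries. Tests were two-sided, with Benjamini-Hochberg adjustment over all genes tested and a threshold of 0.05. The genotype fits used the 6 libraries of a fraction, and the fraction fit and the difference between genotype differences used all 12. The scripts were tested on simulated data. Alternatives were a pseudocount of 0.25, no filter or a mean of at least 5 CPM, other scalings, edgeR 4.0.16 and DESeq2 1.42.0 on the recovered reads, all 12 libraries in the genotype fits, a replicate block, and single libraries left out. Fractions with the same genotype label and number were taken to come from 1 pool, a link that rests on the numbering. Their deviations from the group means correlated at 0.169 to 0.278 in all 6 pairs.

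All 77 members matched GENCODE release M21 by symbol, which gave positions and lengths, and promoters came from RefSeq. The members and all gene lists were chosen with earlier results of these data known. Named members are the 4 with the smallest p per direction in each genotype comparison, the 6 largest differences between fractions per direction, the 3 smallest p for the difference of differences, the 3 highest and 3 lowest per kilobase in each fraction, those without overlap in the same direction in both genotype comparisons (0 members), the S18 paralogues, and Mrps30 and Mrps36. Of the negative differences between fractions there was 1, so 5 more members, the next smallest, were chosen after their values were seen, as were the groups by place in the ribosome. Figures used Python 3.11.15 and matplotlib 3.10.9.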

Additional observations from a re-analysis of the deposited data

How the results depend on the processing

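Each result was recomputed under the alternatives. Between fractions, 75 members were called higher with a pseudocount of 0.25, with no filter and in every fit without 1 library, and 73 of 74 tested with a mean of at least 5 CPM, and the number called lower was 0 except for 1 with no filter on low values (Mrpl23) and 1 without Kdm5c+/- stromal vascular library 3 (Mrpl52), a range of 0 to 1 when single libraries were left out. The members' median was 1.57 under quantile normalization, 1.40 under the median of ratios, 1.48 with TMM, 1.53 with edgeR and 1.45 with DESeq2, and 0.99 to 1.04 without single libraries. Mrpl52 turned positive under these 5 settings, in the same order at 0.35, 0.22, 0.30, 0.31 and 0.23, and was -0.21 to -0.09 without single libraries. Fitted within 1 genotype label, an alternative chosen after seeing the data, Mrpl24 lost its call in wild type libraries (0.15) and Mrpl19 (0.24) and Mrps33 (0.33) in Kdm5c+/- libraries.

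In mature adipocytes the count of called members moved only with DESeq2 (1). Over all genes, DESeq2 called 125 higher and 125 lower in adipocytes, 25 and 28 in the stromal vascular fraction and 19 and 46 for the difference between fractions, against 0 and 0, 1 and 0, and 0 and 0 with limma; edgeR called 1 gene, in the stromal vascular fraction. With all 12 libraries, limma called 0 and 1, and 2 and 2, in the 2 fractions. Mrps7 ranged from -0.12 to 0.0050 and Mrpl20 from -0.12 to 0.0085 when single libraries were left out, both turning positive without Kdm5c+/- adipocyte library 2; the cause was not tested. In the stromal vascular fraction and for the difference between fractions, 0 members were called under every setting that was run. With the pools paired by label and number (replicate block), 75 members were called higher between fractions. The block changed no member's call there or for the difference between fractions. Numbers shared across genotype labels correlated at -0.281 to 0.341, a range that spans the 0.169 to 0.278 of fractions taken as 1 pool. What libraries with equal numbers share beyond the number is not known, and these correlations cannot decide it. With these numbers as a replicate block, 0 members were called in either fraction. The gene called in the stromal vascular fraction was then lost, as it was in every fit that left out 1 library. With 3 libraries per group, the median 95% interval of a member was ± 0.23 in adipocytes and ± 0.26 in the stromal vascular fraction on the log2 scale, which limits what these depths and replicates can show.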
